A study of Rattus norvegicus with 6 samples.

Results

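The MYC, MAX and MXD network was followed through 9 genes of the deposited expression table (Myc, Max, Mxd1, Mxd3, Mxd4, Mxi1, Mnt, Mlx and Mlxip), taken by gene symbol from 32623 genes listed. Each symbol matched a single gene, and all 9 passed the filter on low counts that left 14342 genes to be tested. The cells were nucleus pulposus cells, from the gelatinous centre of the intervertebral disc, grown out of lumbar discs of male Sprague-Dawley rats at 4 weeks of age and used at passages 3 to 5. Both groups received a lentivirus 72 hours before harvest. It carried a short hairpin RNA against Bmal1 in shBmal1 (3 libraries) and a negative control hairpin in shNC (3 libraries). The comparison asks which transcripts differ when the clock gene Bmal1 is knocked down. The labels give neither the number of hairpins or animals nor say if cultures were separate, so the spread behind every p-value is that among these libraries and may be technical.

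The network is a set of transcription factors with a basic helix-loop-helix leucine zipper, which bind DNA as pairs at the E-box, a short palindrome that the BMAL1 and CLOCK pair also recognises. MAX is the shared partner. With MYC it activates genes of growth, ribosome production and metabolism, and with MXD1, MXI1 (also called MXD2), MXD3, MXD4 or MNT it recruits the SIN3 and histone deacetylase corepressors to the same sites. MLX is a second hub. It pairs with MLXIP (MondoA), which follows glucose phosphates, and also with MXD1, MXD4 and MNT.

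Libraries of the 2 groups differed beyond the hairpin. The shNC libraries held 44043803 to 49783710 counts and the shBmal1 libraries 8773762 to 11679587, a 4.44-fold difference in means, and the share of counts from mitochondrial rRNA was 19.3-fold higher in shBmal1. Depth, rRNA share and hairpin cannot be told apart by design. The targeted gene, listed as Arntl, fell in all 3 shBmal1 libraries to 9.55% of its control level (log2 fold change −3.37 ± 0.26, SE; adjusted p = 1.17e-05, edgeR; exact two-sided permutation p = 0.1, the smallest that 3 against 3 libraries allow). Of 13 nucleus pulposus markers found in the table, Tbxt and Shh, which mark notochordal cells, had no count in any library, and the summed level of the list fell from between 2302 and 2653 FPKM in shNC to between 368 and 394 FPKM in shBmal1. Mgp alone made up most of that sum, with means of 2198.5 and 291.5 FPKM. Of the 10 tested markers, Acan, Col2a1, Krt8, Pax1 and Mgp were lower, Foxf1 was higher, and 4 were not called: Sox9 (log2 fold change −0.04), Krt18 (1.28), Krt19 (1.29) and Cd24 (−0.85). For this and the lists that follow, 71.3% of all tested genes were called, 36.0% higher and 35.3% lower. All 6 fibroblast and annulus markers were lower, where 35.3% of all tested genes were, with log2 fold changes from −3.47 (Col3a1) to −0.29 (Thy1). Their sums, mostly Col1a1, were 14390 to 16346 FPKM in shNC and 2084 to 2521 FPKM in shBmal1. Of 5 smooth muscle and pericyte markers 3 were lower and 2 higher (2900 to 3096 against 581 to 656 FPKM). Of the 3 that were lower, Rgs5 had 210 counts over shNC and 4 over shBmal1. It met the count filter only through its level in shNC. Of 6 leukocyte and macrophage markers the defining genes Ptprc, Csf1r, Adgre1 and Itgam had too few counts to be tested, Cd68 was higher and Cd14 lower, and the sums, mostly Cd14, were 17.5 to 23.4 FPKM in control and 15.3 to 20.2 FPKM in knockdown libraries. Sums over 4 endothelial markers were at most 0.2 FPKM in shNC and 1.8 FPKM in shBmal1, with Tek and Vwf higher. Cd68, Tek and Vwf, with 54, 63 and 18 counts over the shNC libraries, met the count filter only through their level in shBmal1. Sums over 4 red cell markers were at most 0.909 FPKM in shNC and 0.175 FPKM in shBmal1. Of 3 genes of hypertrophic chondrocytes Runx2 was lower, Col10a1 was not called (log2 fold change 0.47) and Ihh had too few counts to be tested. The part of these differences in the results below was not tested, and in bulk RNA fewer cells of a type and less RNA per cell cannot be told apart.

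The E-box, the site known to be bound by the network's proteins, was looked up in the promoters of the members themselves. RefSeq promoter windows (rat build GRCr8; 250 bases before to 50 bases after the annotated start) matched 8 of the 9 members by symbol, and 4 of these 8, Max, Mnt, Mlx and Mxd4, held the canonical E-box CACGTG, which reads the same on both strands. The motif stood in 6.42% of all 33469 windows and in at least 1 window of 9.76% of the tested genes that had one. The pieces below show 60 bases around each match, with the motif in capitals, because these members' own promoter windows hold the letters that the network's proteins and BMAL1 are known to bind. A match is a description of the sequence and not evidence of binding.

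The Max piece lies at chr6:101395291-101395350 (reverse strand), 33 bases before the start, the Mnt piece at chr10:60197809-60197868 (forward), 123 bases before, the Mlx piece at chr10:86519789-86519848 (forward), 70 bases before, and the Mxd4 piece at chr14:80786557-80786616 (forward), 197 bases before, counted from the first base of the motif.
Max: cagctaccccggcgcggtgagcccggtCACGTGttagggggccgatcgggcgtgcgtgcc
Mnt: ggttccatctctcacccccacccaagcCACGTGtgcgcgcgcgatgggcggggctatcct
Mlx: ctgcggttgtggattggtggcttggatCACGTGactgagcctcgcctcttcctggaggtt
Mxd4: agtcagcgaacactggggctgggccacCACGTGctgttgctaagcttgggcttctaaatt

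The windows of Mxd1, Mxd3, Mxi1 and Mlxip did not hold these letters, and Myc was not searched. Among the 4 genes shown, Max, Mnt and Mxd4 were lower in shBmal1 and Mlx was higher, so members with the motif moved in both directions. Mlx alone rose, and its call depended on the scaling, as given below.

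The network changed in composition after Bmal1 knockdown. Myc, the activator, rose 2.78-fold, while the shared partner Max and 3 of 5 repressor genes, Mxd4, Mxi1 and Mnt, fell. In the MLX branch, Mlx rose and Mlxip fell 4.10-fold. At an adjusted p under 0.05 (edgeR's quasi-likelihood test, Benjamini-Hochberg adjustment over all tested genes), 7 of 9 members were called (77.8%), against 71.3% of all tested genes, so that the number called was close to the background. By direction, 2 members rose (22.2%, against 36.0% of tested genes) and 5 fell (55.6%, against 35.3%). The median log2 fold change of the 9 was −0.64 and that of all tested genes −0.01. Depth-scaled counts did not overlap between the groups for 8 members (88.9%, against 77.3% of tested genes).

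**Figure D1:**
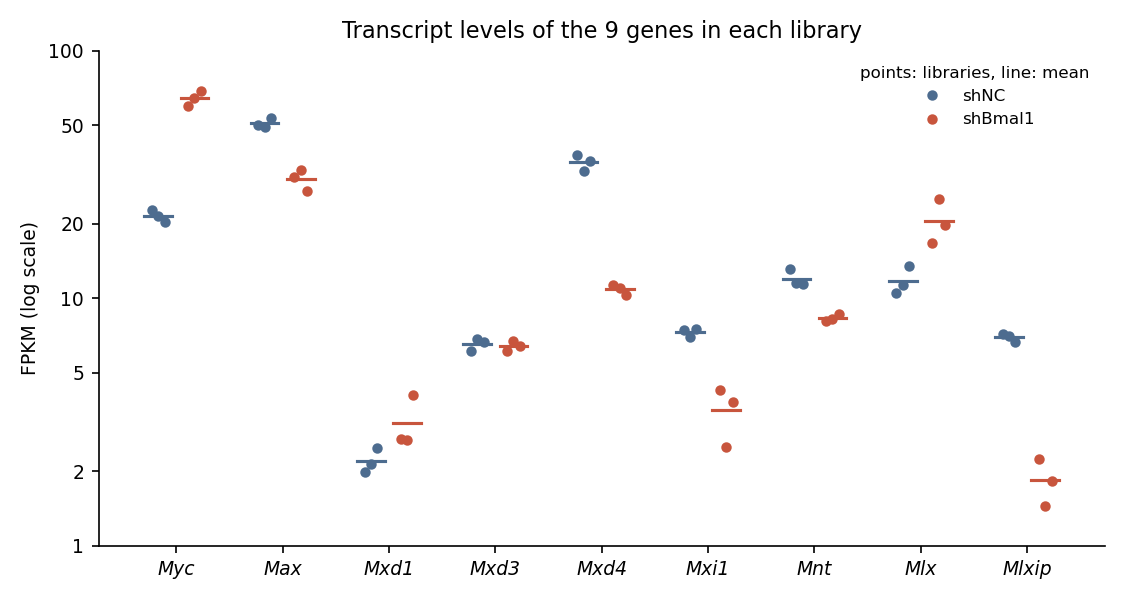
FPKM of the 9 genes (log axis) in 3 shNC libraries (blue points) and 3 shBmal1 libraries (red points), with a line at each group mean. The groups are apart for all genes but Mxd3, and Myc moves from below Max to above it.

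Myc encodes the activator of the network (ENSRNOG00000004500, chromosome 7, 102586313 to 102591240, forward strand; sources used here do not give the build of the deposited coordinates). Its level was 22.7, 21.4 and 20.3 FPKM (fragments scaled by the authors for gene length and library depth) in shNC and 59.9, 64.6 and 68.6 FPKM in shBmal1. Every shBmal1 library was above every shNC library. The log2 fold change was 1.47 ± 0.08 (SE, n = 3 per group; adjusted p = 1.39e-06, edgeR), from 8408 counts over the shNC libraries and 5890 over the shBmal1 libraries. This placed Myc at the 79.6th percentile of all log2 fold changes, so it was not among the extreme risers of these libraries.

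Max (ENSRNOG00000008049, chromosome 6, 99984260 to 100011388, reverse strand) had the highest level of the 9 in shNC, at 50.3, 49.1 and 53.6 FPKM. In shBmal1 it stood at 30.8, 32.9 and 27.2 FPKM, below every control library. The log2 fold change was −0.86 ± 0.09 (adjusted p = 5.73e-05, edgeR), a 1.81-fold fall.

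Among the repressors, Mxd4 carried the largest change. Mxd4 (ENSRNOG00000015033, chromosome 14, 81819415 to 81830811, forward strand) encodes a MAX dimerization protein known from differentiating and resting cells. It read 37.8, 32.6 and 35.9 FPKM in shNC and 11.3, 11.01 and 10.3 FPKM in shBmal1. The groups were far apart and the shBmal1 libraries lay within 1 FPKM of each other, with a log2 fold change of −1.81 ± 0.08 (adjusted p = 6.72e-07, edgeR). It was the second most abundant member in shNC and the fourth in shBmal1.

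Mxi1 (ENSRNOG00000034078, chromosome 1, 274030978 to 274090070, forward strand) encodes another repressor that competes with MYC for MAX. Control libraries read 7.41, 7.00 and 7.51 FPKM and knockdown libraries 4.27, 2.51 and 3.82 FPKM. The shBmal1 libraries varied more than the controls but did not reach them, and the log2 fold change was −1.16 ± 0.19 (adjusted p = 0.000909, edgeR).

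Mnt (ENSRNOG00000002894, chromosome 10, 61685241 to 61700491, forward strand) encodes the broadly expressed repressor regarded as the main constitutive counterweight to MYC. It was at 13.1, 11.5 and 11.5 FPKM in shNC and at 8.12, 8.25 and 8.60 FPKM in shBmal1. The groups did not overlap, and the fall was smaller than that of Mxd4 or Mxi1, at −0.64 ± 0.09 (adjusted p = 0.000312, edgeR). With an offset for gene length the log2 fold change of Mnt was −0.36, still called.

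Mxd1 and Mxd3 did not pass the test. Mxd1 (ENSRNOG00000017720, chromosome 4, 118449882 to 118472179, reverse strand), the founding MXD gene, was the least abundant member in shNC, at 1.98, 2.13 and 2.49 FPKM, against 2.70, 2.67 and 4.05 FPKM in shBmal1. The groups were separate by a narrow margin, shBmal1 replicate 3 was well above the other two, and the log2 fold change was 0.40 ± 0.20 (adjusted p = 0.107, edgeR). With an offset for gene length Mxd1 was called higher, at 0.68 (adjusted p = 0.0168), and without shBmal1 replicate 3 it came to 0.15.

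Mxd3 (ENSRNOG00000016539, chromosome 17, 9830332 to 9839452, forward strand), a repressor gene linked to proliferating cells, was at 6.13, 6.85 and 6.67 FPKM in shNC and 6.12, 6.71 and 6.41 FPKM in shBmal1. The ranges overlapped almost fully (log2 fold change −0.14 ± 0.08; adjusted p = 0.177, edgeR). Its sign turned with the scaling, to 0.20 with the length offset, while with FPKM rescaled to sum to the same total (TPM) it was called lower, at −0.48 (adjusted p = 0.00619, limma). Mxd3 spans the gene Prelid1 on the opposite strand (chromosome 17, 9834242 to 9837297), which held 20064 counts over the shNC libraries against 5702 for Mxd3. Prelid1 had a log2 fold change of 0.15 (−0.22 with TPM), and no source used here says if reads were counted by strand, so the value of Mxd3 is uncertain.

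In the MLX branch both genes changed, in opposite directions. Mlx (ENSRNOG00000019983, chromosome 10, 88997399 to 89002152, forward strand) was at 10.5, 11.3 and 13.6 FPKM in shNC and at 16.7, 25.1 and 19.7 FPKM in shBmal1. The groups did not overlap although shBmal1 replicate 2 stood above its neighbours. The log2 fold change was 0.70 ± 0.16 (adjusted p = 0.00549, edgeR), and with TPM Mlx lost its call, at 0.30 (adjusted p = 0.166, limma). The last bases of Mlx overlap Psmc3ip on the opposite strand (chromosome 10, 89002116 to 89005213), which was not called (log2 fold change −0.59).

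Mlxip (ENSRNOG00000001255, chromosome 12, 38567247 to 38638536, reverse strand), which encodes the glucose-sensing partner of MLX, had the largest change of the 9 with TMM scaling; with TPM that of Mxd4 was larger. It was at 7.15, 7.04 and 6.67 FPKM in shNC and at 2.23, 1.45 and 1.83 FPKM in shBmal1, where it rested on 95, 81 and 100 counts. No shBmal1 library came near the controls, and the log2 fold change was −2.04 ± 0.16 (adjusted p = 1.37e-05, edgeR).

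**Figure D2:**
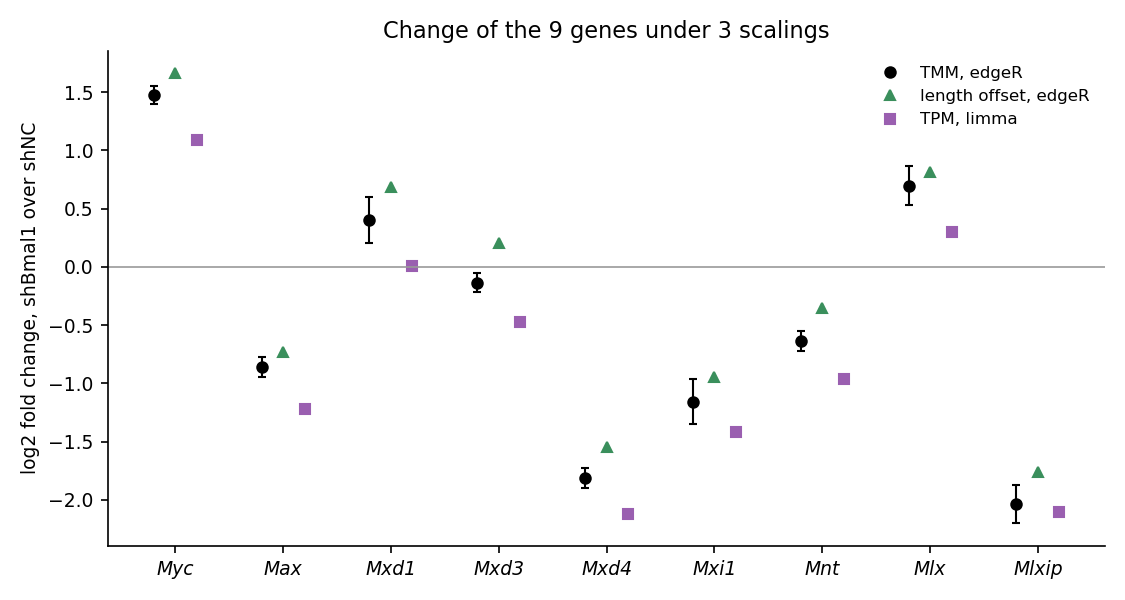
Log2 fold change (shBmal1 over shNC) of the 9 genes with TMM scaling in edgeR (black, bars are SE), with an offset for gene length (green) and with TPM in limma (purple). Of the 9, Mxd3 alone lies on both sides of 0.

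Scaling set the zero line of these changes. With TPM the median log2 fold change of all tested genes was −0.35 against −0.01 with TMM, as the deposited FPKM sum to 410230 to 418150 in shNC libraries and to 565290 to 598760 in shBmal1 libraries. TPM called 4065 genes higher and 6681 lower, against 5167 and 5066 with TMM. With TPM, Myc stood at 1.09, Mxd4 at −2.13 and Mlxip at −2.10. Myc, Max, Mxd4, Mxi1, Mnt and Mlxip kept their direction and their call under all 14 alternatives, including each library left out in turn and all libraries thinned to the same total.

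The order of levels, which FPKM allows to be compared between genes, changed at the top. In shNC it ran Max, Mxd4, Myc, Mnt, Mlx, Mxi1, Mlxip, Mxd3, Mxd1, and the library ranges of Mnt and Mlx, of Mxi1 and Mlxip and of Mlxip and Mxd3 overlapped. In shBmal1 the order was Myc, Max, Mlx, Mxd4, Mnt, Mxd3, Mxi1, Mxd1, Mlxip, and only the ranges of Mxi1 and Mxd1 overlapped among neighbours. Among all tested genes Max went from the 91.4th to the 82.8th percentile of mean FPKM, and Myc from the 79.7th to the 90.6th.

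Ratios within a library do not depend on the scaling between libraries. In FPKM, the Myc to Max ratio of the control libraries was 0.451, 0.437 and 0.379, and that of the knockdown libraries 1.94, 1.97 and 2.52. Myc transcript was thus below Max transcript in all control libraries and above it in all knockdown libraries, a 5.08-fold difference in the mean ratio (exact two-sided permutation p = 0.1, the smallest possible here). Against the summed FPKM of the 5 repressor genes Mxd1, Mxd3, Mxd4, Mxi1 and Mnt, Myc went from a ratio of 0.338 ± 0.020 to 1.99 ± 0.13 (SD, n = 3; exact permutation p = 0.1). The Mlxip to Mlx ratio was 0.684, 0.625 and 0.492 in control libraries and 0.134, 0.0577 and 0.0928 in knockdown libraries. This was 6.34-fold higher in shNC, with no overlap (exact permutation p = 0.1).

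**Figure D3:**
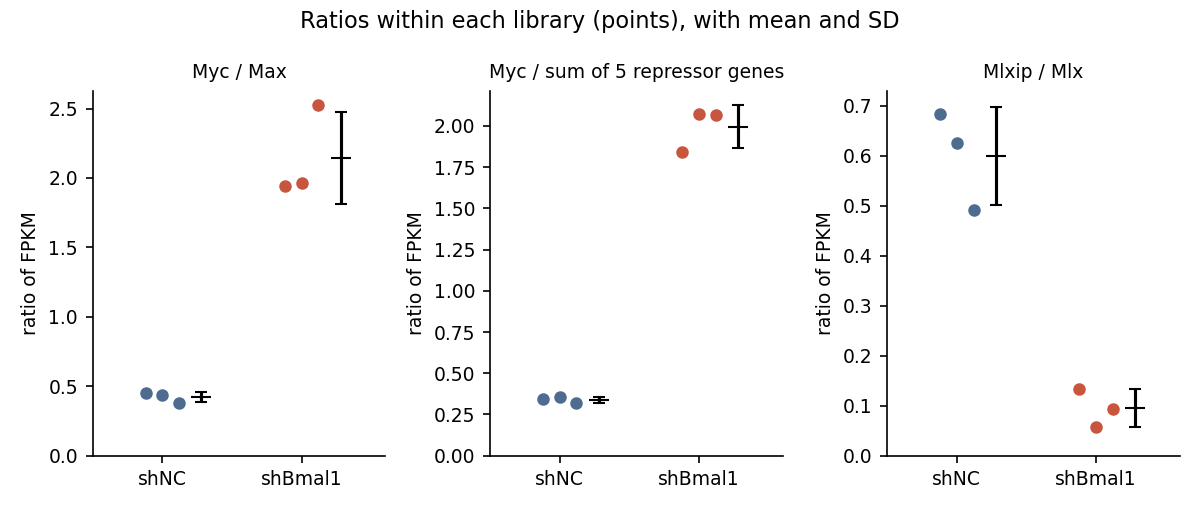
Ratios of FPKM within each library for Myc over Max, Myc over the sum of 5 repressor genes (Mxd1, Mxd3, Mxd4, Mxi1 and Mnt), and Mlxip over Mlx; points are libraries, bars the mean and SD of 3. Both Myc ratios are below 0.5 in all shNC libraries and above 1.8 in all shBmal1 libraries.

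All genes whose products pair with MAX can be set side by side as shares of their summed FPKM. The sum covers 9 genes: Myc, Mycn, Mycl, Mga, Mnt and the 4 genes of the MXD group including Mxi1. Myc made up 24.1, 24.6 and 22.6% of the sum in shNC and 56.5, 58.2 and 58.6% in shBmal1, a difference of 34.0 percentage points (exact permutation p = 0.1). Mxd4 had been the largest component in every control library, at 39.2 ± 1.48% (SD, n = 3), and was at 9.79 ± 0.91% in shBmal1. Mnt went from 13.3 ± 0.56% to 7.48 ± 0.16% and Mxi1 from 8.09 ± 0.26% to 3.18 ± 0.88%. The share of Mga, outside the 9 members, rose from 5.72 ± 0.36% to 12.7 ± 0.77%. The sum itself went from 90.3 ± 3.71 to 111 ± 5.56 FPKM, and per Max transcript from 1.77 ± 0.10 to 3.71 ± 0.52. These are shares of transcript, and protein was not measured.

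**Figure D4:**
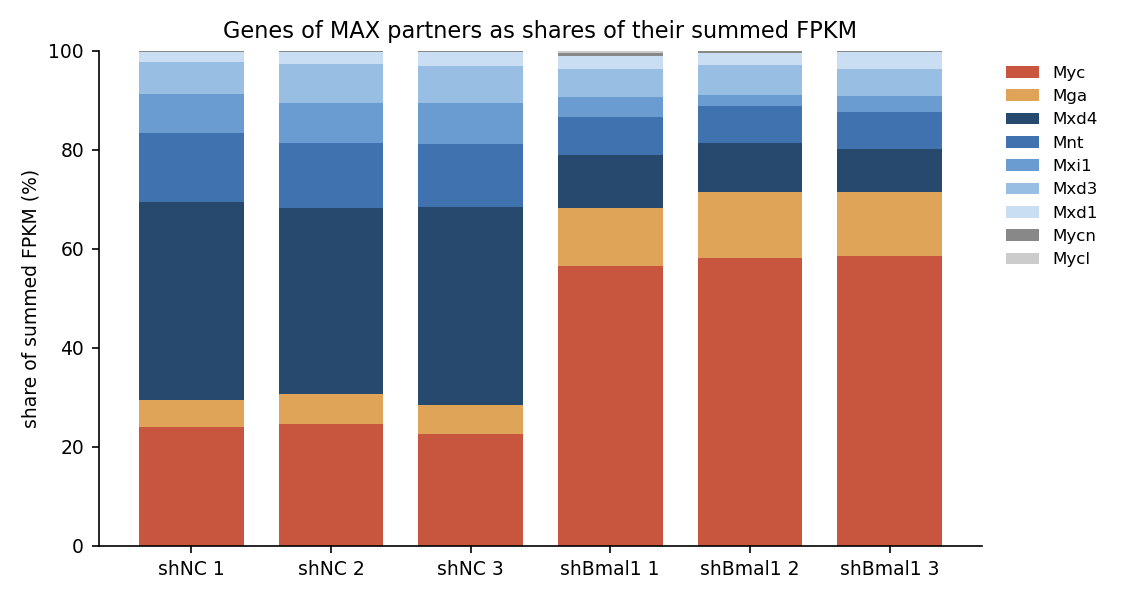
Share of each MAX partner gene (colour) in the summed FPKM of 9 partner genes, for each of the 6 libraries. Myc (red) takes 22.6 to 24.6% of the sum in shNC and 56.5 to 58.6% in shBmal1, and Mxd4 (darkest blue) is the main component in shNC alone.

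Of the other genes of the network, Mga was the one called. MGA is a MAX partner with an additional T-box domain and a member of a repressive Polycomb complex. Mga stood at 5.04, 5.27 and 5.17 FPKM in shNC and at 12.5, 14.8 and 15.02 FPKM in shBmal1, with a log2 fold change of 1.34 ± 0.08 (adjusted p = 2.93e-06, edgeR). The groups were well apart. Mycn, the MYC relative of embryonic and neural tissue, was near the limit of measurement, at 80 counts over shNC and 44 over shBmal1 (log2 fold change 1.17 ± 0.53, adjusted p = 0.0788, edgeR); on log2 FPKM with a pseudocount of 0.1 it was called (adjusted p = 0.0476, limma). Mycl had 7 and 12 counts and the rodent gene Mycs 0 and 8, too few to be tested, and Mlxipl was not matched by symbol. The activator arm in these cells was therefore almost wholly Myc by transcript.

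The partners and regulators of the proteins were mixed. Of 14 genes for MYC cofactors and turnover, 5 rose, 3 fell and 6 did not pass, where 36.0% of all tested genes rose and 35.3% fell. The median log2 fold change of 0.15 turned to −0.22 with TPM (3 higher, 6 lower). Fbxw7, whose product marks MYC for degradation, rose from 2.44 ± 0.40 to 17.0 ± 2.18 FPKM (log2 fold change 2.69). Kat5, the acetyltransferase of the TIP60 complex that MYC recruits, rose by 2.43, and Zbtb17, which encodes the MYC-binding transcription factor MIZ1, by 1.71 on the log2 scale. Trrap, the scaffold of the acetyltransferase complexes that MYC brings to DNA, fell from 9.06 ± 0.42 to 3.54 ± 0.03 FPKM (−1.46), and Kat2a (−1.44) and Bin1 (−0.81) fell as well.

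Genes for the corepressors that MXD and MNT proteins recruit were all called, 4 of 6 tested being higher and 2 lower (median 0.72), where 71.3% of all tested genes were called. Sin3b rose from 48.9 ± 3.61 to 147 ± 14.3 FPKM (log2 fold change 1.48), while its paralog Sin3a fell (−0.92). Likewise Hdac2 rose (1.14) and Hdac1 fell (−0.69). Sap30 (1.22) and Suds3 (0.30), which encode SIN3 complex subunits, rose, but Suds3 came to −0.07 with TPM.

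Genes commonly listed as activated by MYC were mostly higher. The 26 tested comprised 17 that rose, 6 that fell and 3 that were not called, where 36.0% of all tested genes rose and 35.3% fell. The median log2 fold change was 0.74 against −0.01 for all tested genes. With TPM the counts were 15 higher and 8 lower, with a median of 0.37. Pes1, which encodes a factor for large ribosomal subunit assembly, was at 29.4, 30.2 and 28.4 FPKM in shNC and 275, 310 and 318 FPKM in shBmal1 (log2 fold change 3.24 ± 0.08; adjusted p = 4.32e-08, edgeR). Hspd1, the mitochondrial chaperonin gene, rose by 2.38, Ncl, which encodes nucleolin, by 2.34 and Nolc1, a nucleolar phosphoprotein gene, by 1.87 on the log2 scale. The genes that fell were Cad, which encodes an enzyme of pyrimidine synthesis (−1.89), Srm, which encodes spermidine synthase (−1.58), Cdk4 (−0.97), Ccnd2 (−0.87), Shmt2 (−0.76) and Ldha (−0.26), the last without a call on log2 FPKM with a pseudocount of 0.1 (adjusted p = 0.0679, limma; the pseudocount was added to FPKM). Not called were Odc1, which encodes an enzyme of polyamine synthesis (0.03), Ppat, of purine synthesis (−0.07), and Tert (−0.39).

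Genes commonly listed as repressed by MYC split. The 7 tested included 2 that rose, 4 that fell and 1 that was not called (median −0.96). Of all tested genes 36.0% rose and 35.3% fell. The 2 that rose were Cdkn1a (log2 fold change 2.71), which encodes p21, and Gadd45a (2.77), a stress gene. Both are also textbook targets of p53, whose part in these changes was not tested. Those that fell were Cdkn1b, which encodes the cell cycle inhibitor p27 (−0.96), Cdkn2b (−1.86), Ndrg2 (−3.02) and the growth arrest gene Gas1. Ndrg2 (SE 0.81) had 668 counts over shNC and 21 over shBmal1, and Gas1 had 844 and 5. Both met the count filter only through their level in shNC. Cdkn2b varied among the shNC libraries, at 2390, 1185 and 993 counts.

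Genes commonly listed as driven by MLX pairs were mostly higher, with Mlxip lower and Mlx higher in the same libraries. Whether MLX pairs drive them in these cells was not tested. Of 5 tested, 4 rose and 1 fell (median 1.34), against 36.0% and 35.3% of all tested genes, and Pklr had no count. Arrdc4, an arrestin-domain gene used as a readout of MLXIP activity, was at 1.603, 1.83 and 1.59 FPKM in shNC and 83.9, 87.8 and 89.1 FPKM in shBmal1. The groups differed by a log2 fold change of 5.58 ± 0.08 (adjusted p = 2.43e-08, edgeR). Txnip, the other usual readout and a brake on glucose uptake, went only from 110 ± 4.32 to 154 ± 4.11 FPKM (0.37) and did not differ with TPM (adjusted p = 0.9998, limma). Klf10 (1.79) and Hk2, which encodes hexokinase 2 (1.34), rose, and the glycolytic regulator Pfkfb3 fell (−1.46).

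Other factors of the same DNA-binding class that use E-boxes were more often lower. Among 9 tested there were 5 falls, 3 rises and 1 gene not called (median −0.97), where 35.3% of all tested genes fell and 36.0% rose. The sterol regulators Srebf1 (−2.26) and Srebf2 (−1.46), Usf2 (−0.97), the lysosomal regulator Tfeb (−2.56) and Tfap4 (−1.15) fell. Usf1 (0.38) and Tfe3 (0.42) rose but lost their calls with TPM (adjusted p = 0.973 and 0.628, limma). Tfec had no count in shNC and 15, 8 and 23 counts in shBmal1, at least 62.0-fold higher against a floor of 3 counts over the control group, and it met the count filter through shBmal1 alone.

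**Figure D5:**
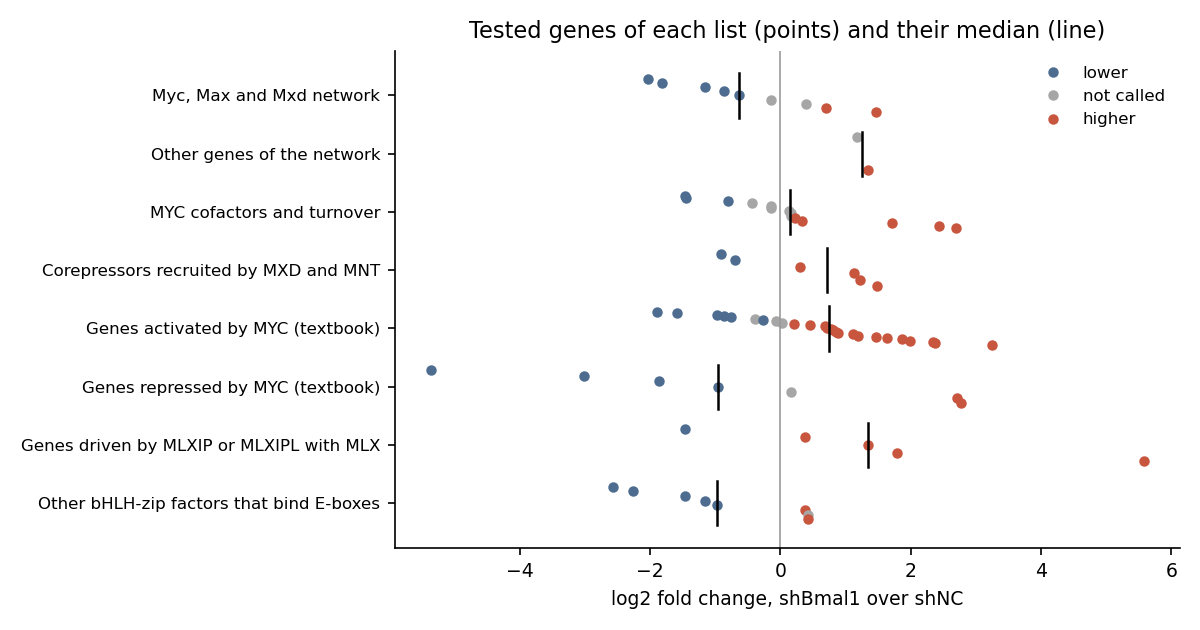
Log2 fold change of each tested gene (points; red called higher, blue called lower, grey not called) in the network and in 7 related lists, with the list median as a line. Tfec, absent from shNC, is left out of the points; the MYC-activated list lies mostly right of 0, at a median of 0.74.

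The E-box also appeared in these lists. Of 23 MYC-activated genes with a RefSeq promoter window, 9 (39.1%) held CACGTG, against 9.76% of tested genes, and of these 9 Cdk4, Ldha and Srm fell and Dkc1, Eif4e, Fbl, Mybbp1a, Pes1 and Slc7a5 rose. In the list as a whole 17 of 26 tested genes rose and 6 fell. The shares over all tested genes were 36.0% and 35.3%. Of 4 genes in the MLX list with a window, Arrdc4, which rose, and Pfkfb3, which fell, held it. Pieces for the gene with the smallest p in each of the 2 lists are printed here, Pes1 at chr14:83074269-83074328 (forward, motif 50 bases before the start) and Arrdc4 at chr1:131793570-131793629 (reverse, 177 bases before), in GRCr8.
Pes1: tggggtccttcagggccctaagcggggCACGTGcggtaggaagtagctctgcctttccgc
Arrdc4: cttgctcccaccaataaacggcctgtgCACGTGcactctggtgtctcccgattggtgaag

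Over the whole table, 961 tested genes with the motif in a window and 8891 without it, all with a symbol held by a single tested gene, were compared as a description. Of those with the motif 41.3% were called higher and 35.0% lower, with a median log2 fold change of 0.10. Of those without it 33.4% were higher and 39.2% lower, with a median of −0.14. Averaged over all windows of a gene, GC content had a median of 62.3% in genes with the motif and 60.7% in genes without it. These medians cover every tested symbol with a window, and the part of GC content in the difference in calls was not tested.

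Shared annotation follows in part from the choice of members, which all encode factors that bind DNA as pairs. In the table's GO annotation all 9 carry the term protein dimerization activity, which 168 listed genes carry, and 7 carry the term for DNA-binding repressors of RNA polymerase II genes, which 248 carry and which here includes Myc but not Mxd3 or Mlxip.

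Genes whose profile over the 6 libraries lay closest to a member's were found by Euclidean distance of log2 CPM centred on each gene's mean. With 2 groups, this mainly finds genes with the same fold change. Closest to Myc were Rplp0, which encodes a ribosomal stalk protein (distance 0.105, log2 fold change 1.47), Tm9sf4 (0.118), Wdr46, a nucleolar factor gene (0.122), Foxred1 (0.126) and Cxxc1 (0.127). Closest to Mlx, the other member that rose, were Fbxw9 (0.131), Klhl26 (0.131), Cttnbp2 (0.143), Rhno1 (0.159) and Prmt3 (0.167). Among the closest to Mlxip were Zfp444 (0.0569), Arhgef39 (0.132), Sun1 (0.144) and the ETS factor gene Etv5 (0.179).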

How the data were processed

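Polyadenylated RNA of 6 libraries was sequenced as paired ends on an Illumina NovaSeq instrument, per the labels' protocols, whose text also mentions adipose tissue and both poly(A) fractions. Tools listed, without roles, in the submitters' processing notes are StringTie 1.3.4d, HISAT2 2.0.4, cutadapt 1.9, DESeq2 and edgeR. For the build, annotation, counter and strand setting nothing is given in the sources used. The deposited table holds raw counts and FPKM per gene and library, per the file headers; the authors list genes without a count at a small constant FPKM, read here as 0. Columns not tied to a sample numbered 0.

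Groups came from sample titles. After filterByExpr (counts of at least 10, totals of at least 15), genes were TMM-scaled and tested with edgeR 4.0.16 (R 4.3.3; glmQLFit, glmQLFTest, no replicate block) over the whole table. These log2 fold changes lie 0.11 below log2 ratios of FPKM (median over genes). At these depths, 3 counts correspond to 0.0603 to 0.0681 CPM in shNC and 0.257 to 0.342 CPM in shBmal1, which covers counting error only. No pair of libraries within a group was a duplicate: chi-square over its degrees of freedom was 11.2 to 25.2. Alternatives used DESeq2 1.42.0 and limma 3.58.1.

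The 9 members and all lists were chosen with earlier results of these data known. From each list up to 4 tested genes with the smallest p were named, and any gene alone in its direction; for each of Myc, Mlx (largest other rise) and Mlxip (largest fall) the 5 nearest genes with plain symbols were named, except 1 that is not reported here. Other listed genes, the ratio of Myc to the repressors and the comparison of genes with and without CACGTG were chosen after values were seen.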

Additional observations from a re-analysis of the deposited data

How the results depend on the processing

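Across 14 alternatives the number of members called was 7 or 8, and 9274 to 10950 genes were called over the whole table. With TPM, 1 member was called higher in place of 2 (Mlx was lost) and 6 lower in place of 5 (Mxd3 was gained); the length offset gave 3 higher (Mxd1 gained) and turned Mxd3 to 0.20. TPM also turned Suds3 to −0.075 and Prelid1 to −0.22. The cause of these changes was not tested. From counts not per length, the difference in the Myc share of MAX partner genes was 22.9 percentage points instead of 34.0. Without division by length, longer genes weigh more in the sum. Myc stood at the 59.3rd percentile of gene length, and the 5 repressor genes between the 64.7th (Mxi1) and the 93.2nd (Mxd3). Leaving out each library in turn changed no member's call. Same-numbered libraries of the 2 groups did not deviate together (correlations −0.071 to 0.020), so the replicate block is only an alternative; with it 9415 genes and 7 members were called. Alternatives for genes outside the 9, for the list counts and for Myc against the repressors were added after the data were seen. Depth limits Mlxip, Mxi1 and Mxd1 most, at 276, 347 and 486 counts over the shBmal1 libraries.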
